A study of Homo sapiens with 12 samples.

Results

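HA22T and PLC5, 2 human hepatocellular carcinoma cell lines, were compared with each other after transfection of control siRNA alone, so that the values describe how the lines differ without knockdown. The 6 arrays labelled siControl were taken by their titles, 3 of HA22T and 3 of PLC5, out of 12 arrays in all. The other 6 arrays are of the same lines with siRNA against GALNT1 (siGALNT1). They served here to repeat the line difference in separate samples. They also entered the estimates of the spread and of the slide in the fit of all 12 arrays. Both siControl groups were grown in DMEM with 10% serum, received 10 nM of non-targeting siRNA with Lipofectamine RNAiMAX and gave total RNA after 48 h. Each group is 1 established line, RNA was extracted in triplicate, and the sources do not say whether the triplicates were separate cultures. The p-values therefore measure only the spread between samples within the 4 groups of arrays.

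Hepatocytes make most proteins of blood plasma, and a set of transcription factors that includes the HNF4, HNF1, FOXA and CEBP families keeps those genes on. Liver cancer cells can lose this program, and some lines instead carry cytoskeletal, adhesion and matrix genes of mesenchymal cells. Lines also differ in interferon-induced genes, which cells switch on against viruses, and in metallothioneins, small proteins that bind metal ions.

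The arrays carry 58717 spots that are not controls, of which 39866 to 46933 in HA22T and 39450 to 48873 in PLC5 were well above background, and no spot was saturated. A level is given as the log2 processed signal relative to the 75th percentile of the same array, and a difference is the HA22T mean minus the PLC5 mean, so a positive difference means higher in HA22T. Probes were tested when they were well above background on all 3 arrays of at least 1 line, and a call is an adjusted p below 0.05 in limma. Arrays of the same line had correlations of 0.969 to 0.987 and those of different lines 0.842 to 0.869. The 3 HA22T arrays and PLC5 replicate 1 shared a slide, and PLC5 replicates 2 and 3 were on another, so the calls, the gene lists and the named genes were also computed with the slide as a block and within the first slide. A two-sided exact permutation test of 1 gene over these groups has 0.1 as its smallest p, so single genes rest on limma.

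Of 33730 probes tested, 9721 were called, which is 28.8%. Of all tested probes 16.7% (5644 probes) were higher in HA22T and 12.1% (4077 probes) were higher in PLC5. The largest differences lay more often on the PLC5 side, with 519 called probes higher in PLC5 by at least 4 on the log2 scale and 328 higher in HA22T by that much. With the slide as a block 7904 probes were called, 7098 of them among the 9721 with the same direction. Read as genes, each by its brightest probe, 15651 genes were tested, of which 21.2% were higher in HA22T and 13.5% were higher in PLC5. The median difference over all genes was 0.23, and it is the value against which the gene lists are read. A list member that did not pass the filter was not tested, and one bright in 1 line entered only through that line, so the counts describe the members and are no test of a list. Another 26 members were left out of the list counts because a flagged spot left an array without a value. Among them, named after their values were seen, the urea cycle enzyme CPS1 differed by -7.60, the EGFR ligand EREG by -2.91 and the liver factor ONECUT1 by -2.32, and the keratin KRT80 by 5.67 and the receptor AXL by 3.36, each over the arrays with a value. The median difference over all genes was 0.12 with spots flagged as non-uniform kept, where 51.0% of calls were higher in HA22T in place of 58.1%.

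**Figure D1:**
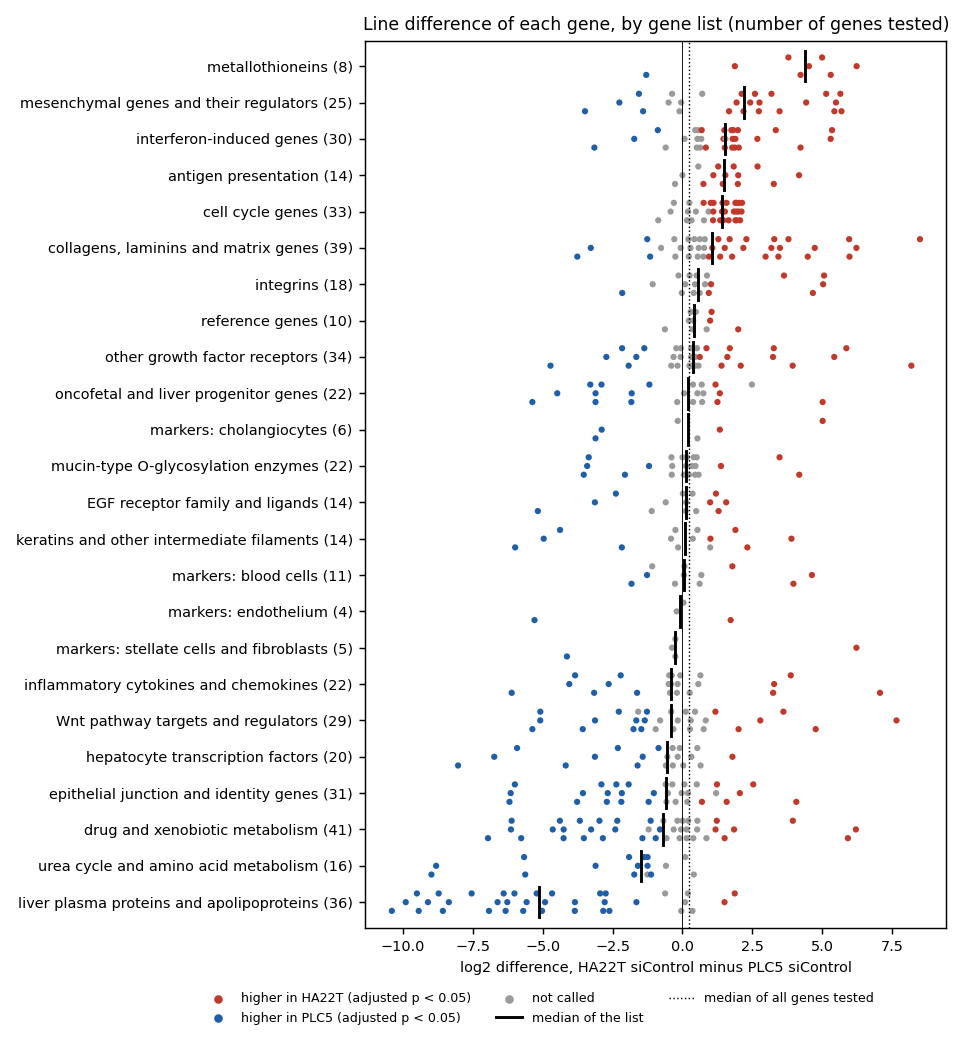
Each point is 1 tested gene, placed by its log2 difference (HA22T siControl mean minus PLC5 siControl mean) in the row of its list; red points were higher in HA22T, blue points higher in PLC5 and grey points were not called by limma. The list of plasma protein genes lies far to the left with a median of -5.12 (-2.95 over members above background on all 6 arrays), and mesenchymal genes and metallothioneins lie to the right with medians of 2.18 and 4.38, against 0.23 for all genes (dotted line).

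Genes of plasma proteins and apolipoproteins, listed with the membrane proteins TM4SF4 and TM4SF5, had the lowest median of the lists. Of 39 members listed 36 were tested, of which 29 (80.6%) were higher in PLC5 and 2 (5.6%) in HA22T, against 13.5% and 21.2% of all genes. Another 5 were not called, and the median difference was -5.12. The median was -2.95 over the members above background on all 6 arrays. Of these 36 genes, 21 were well above background on all 3 HA22T arrays and 5 on none of them. All 36 were well above background on every PLC5 array. The filter itself required this of the members that were not so on all 3 HA22T arrays.

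Apolipoprotein A2 (APOA2), a protein of high-density lipoprotein, had levels of -4.70, -4.17 and -4.24 in HA22T and of 5.92, 5.38 and 5.31 in PLC5. The difference was -9.91 ± 0.44 (SE), a fold of 959 (limma, adjusted p = 7.19e-09), and in the siGALNT1 arrays it was -10.20. The groups were far apart on every array. The fibrinogen alpha chain (FGA) had levels of -3.23, -2.33 and -3.01 in HA22T and of 5.76, 5.50 and 5.90 in PLC5. Its 3 tested probes gave differences between -10.37 and -6.87, all toward PLC5. Retinol binding protein 4 (RBP4), the plasma carrier of vitamin A, was not well above background on any HA22T array and stood at 3.71, 3.62 and 3.88 in PLC5. For such a gene only a bound can be given, the mean of the bright line against, on each array of the dim line, the higher of its own level and the lowest level of a probe well above background. RBP4 was at least 547-fold higher in PLC5. By the same bound APOC1, an apolipoprotein of triglyceride-rich particles, was at least 183-fold higher.

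The iron carrier transferrin (TF) and apolipoprotein B (APOB), the structural protein of low-density lipoprotein, differed by -9.51 and -9.44. TF was well above background on 1 HA22T array and APOB on 2. Albumin (ALB), the main plasma protein, differed less, with levels of -4.74, -4.03 and -3.78 in HA22T and of 0.12, -0.54 and -0.59 in PLC5. Its difference was -3.85 ± 0.44 (limma, adjusted p = 2.13e-05), 14.4-fold. Among the members higher in HA22T the complement factor CFB differed by 1.87. All 31 called members kept their direction in the siGALNT1 arrays, where the median was -5.13. Within the first slide the median was -5.50, with 28 members called higher in PLC5 and 0 called higher in HA22T.

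The promoters of these genes were searched for GTTAAT, a core motif of HNF1, on both strands of the 250 bases before the start site. Of all genes with a promoter in the RefSeq table, 7.5% hold it, and 8 of the 23 promoters of list members higher in PLC5 do. It was in 0 of 4 promoters of members not called and in 0 of 1 of those higher in HA22T. The list holds genes known as liver plasma proteins, so the share in the list is no result of the line comparison. A match is a description of the letters and not a bound site. The stretches around the match are shown for members that differed between the lines, 5′ to 3′ on the strand of the gene (build GRCh38.p14), with the motif, or its reverse complement, in capitals.
FGA (chr4:154590762-154590821, minus strand): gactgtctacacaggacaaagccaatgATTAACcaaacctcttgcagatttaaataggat
FGB (chr4:154562902-154562961, plus strand): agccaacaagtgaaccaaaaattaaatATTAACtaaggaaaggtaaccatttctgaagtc
SERPINA1 (chr14:94388646-94388705, minus strand): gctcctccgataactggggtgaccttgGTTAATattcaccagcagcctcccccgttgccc
ALB (chr4:73404199-73404258, plus strand): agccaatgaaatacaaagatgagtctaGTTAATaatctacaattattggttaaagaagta
F2 (chr11:46719152-46719211, plus strand): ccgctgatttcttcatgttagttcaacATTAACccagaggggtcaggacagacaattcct
The longer HNF4 motif CAAAGTCCA was in the promoter of 0.403% of all genes and of 1 list member, AHSG.

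The transcription factors of hepatocytes moved less evenly. Of 20 tested, 9 (45.0%) were higher in PLC5 and 1 (5.0%) in HA22T, against 13.5% and 21.2% of all genes. Another 10 were not called, and the median was -0.57. HNF4A, a nuclear receptor at the head of the hepatocyte program, had levels of -0.37, -0.76 and -0.98 in HA22T and of 3.22, 1.95 and 2.13 in PLC5, a difference of -3.13 ± 0.41 (limma, adjusted p = 6.57e-05). The groups did not overlap. PROX1, a homeobox factor of early liver cells, was not well above background in HA22T and was at least 56.9-fold higher in PLC5. FOXA2, a pioneer factor of endoderm, differed by -6.74 with 1 HA22T array well above background. The bile acid receptor NR1H4 differed by -5.92, also with 1 such array. CEBPA differed by -4.18 with all 6 arrays above background. GATA6, an endoderm factor, went the other way by 1.79 ± 0.27 (limma, adjusted p = 0.000247).

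Enzymes of the liver followed the plasma proteins in part. Of 16 tested genes of the urea cycle and amino acid metabolism, 12 were higher in PLC5, 0 were higher in HA22T and 4 were not called, with a median of -1.48. Glutamine synthetase (GLUL) was at least 241-fold higher in PLC5, with levels of -6.36, -6.01 and -6.44 in HA22T and of 2.89, 2.23 and 2.52 in PLC5. Histidine ammonia-lyase (HAL) was at least 15.1-fold higher, and glycine decarboxylase (GLDC) differed by -5.63. Of 41 genes of drug metabolism, 19 (46.3%) were higher in PLC5, 7 (17.1%) were higher in HA22T and 15 were not called. All genes gave 13.5% and 21.2%. The glutathione transferase GSTP1 had levels of -0.22, 0.73 and 0.32 in HA22T and of 6.61, 5.70 and 5.84 in PLC5, a fold of 54.7. The retinal dehydrogenase ALDH1A1 was 125-fold higher in PLC5. On the other side CYP1B1, a cytochrome that oxidises steroids and aromatic compounds, differed by 5.92, and SLCO1B3, an uptake transporter for bile acids and drugs, was at least 22.9-fold higher in HA22T.

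Oncofetal genes, made in fetal liver and again in many liver tumors, were called more often toward PLC5. Of 22 tested, 9 (40.9%) were higher in PLC5, 4 (18.2%) were higher in HA22T and 9 were not called. Over all genes the shares were 13.5% and 21.2%. The median of the list, 0.22, was near the 0.23 of all genes. Glypican 3 (GPC3), a cell surface proteoglycan, had levels of -2.95, -2.59 and -3.13 in HA22T and of 1.77, 1.33 and 1.67 in PLC5, a fold of 22.4 (limma, adjusted p = 2.07e-08). Alpha-fetoprotein (AFP), above background on 2 HA22T arrays and all 3 PLC5 arrays, had levels of -4.68 to -3.82 in HA22T and of -4.30 to -3.88 in PLC5, and its difference of -0.19 ± 0.36 was not called (limma, adjusted p = 0.742). LIN28B, which blocks let-7 maturation, differed by -3.30, and the mRNA-binding protein IGF2BP3 by 1.18 in the other direction.

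**Figure D2:**
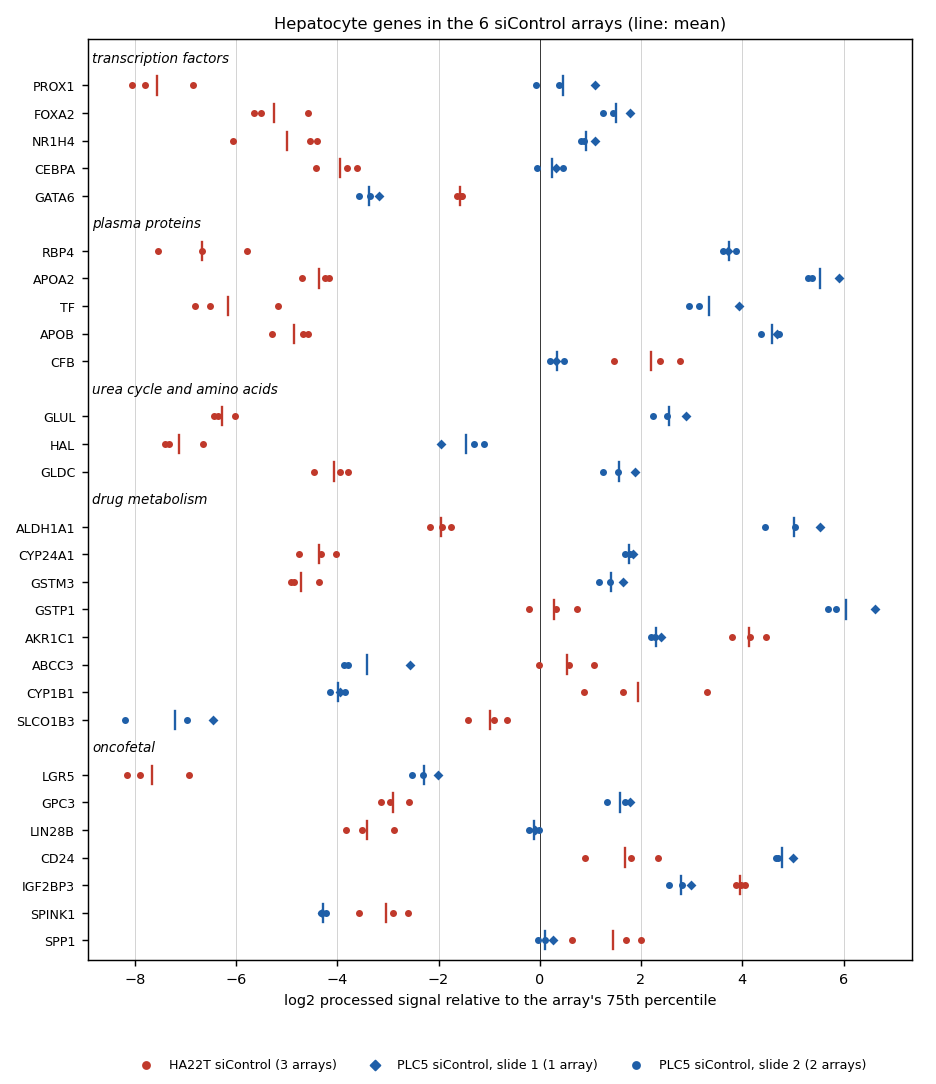
Each point is 1 siControl array, placed by its log2 processed signal relative to the 75th percentile of that array, for the genes of 5 hepatocyte lists named by the rule; red points are HA22T, blue diamonds PLC5 on the first slide, blue circles PLC5 on the second, and vertical lines are group means. The plasma protein genes of PLC5 lie above those of HA22T on all arrays except for CFB.

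Mesenchymal genes were more often higher in HA22T. Of 25 tested, 16 (64.0%) were higher in HA22T and 4 (16.0%) in PLC5, against 21.2% and 13.5% of all genes. Another 5 were not called, and the median was 2.18. Vimentin (VIM), the intermediate filament of mesenchymal cells, had levels of 6.46, 6.04 and 5.82 in HA22T and of 1.00, 0.58 and -0.22 in PLC5. The fold was 50.3 (limma, adjusted p = 2.83e-07), and the groups were far apart. ZEB1, a repressor of epithelial genes, had its lowest HA22T level at 0.57 and its highest PLC5 level at -1.05, a fold of 4.34 (limma, adjusted p = 0.000114). The matricellular protein CCN1 differed by 5.50, and the collagen cross-linking enzyme LOXL2 by 5.69 with 2 PLC5 arrays above background. SPARC, another matrix protein, was at least 16.7-fold higher in HA22T. The exceptions included fibronectin (FN1), often counted as mesenchymal but also a plasma protein made by hepatocytes, with levels of 0.33, 0.93 and 0.85 in HA22T and of 4.25, 4.42 and 3.91 in PLC5. FN1 was 11.2-fold higher in PLC5, and TGFBI, a matrix protein, was 4.79-fold higher there.

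Epithelial genes leaned toward PLC5, though 23 of the 31 tested were well above background on all 3 HA22T arrays and 2 on none. Of 31 tested, 14 (45.2%) were higher in PLC5 and 6 (19.4%) in HA22T, against 13.5% and 21.2% of all genes. Another 11 were not called, and the median was -0.57. The epithelial transcription factor ELF3 differed by -6.19 ± 0.48 (limma, adjusted p = 6.98e-07), and desmoplakin (DSP), which anchors keratins to desmosomes, was at least 37.4-fold higher in PLC5. Plakoglobin (JUP) had levels of -1.64, -0.77 and -0.48 in HA22T and of 3.24, 2.60 and 2.59 in PLC5, 13.7-fold apart. Against these, plakophilin 3 (PKP3) was 16.8-fold and claudin 6 (CLDN6) 5.79-fold higher in HA22T. E-cadherin (CDH1), the defining epithelial cadherin, was well above background on 2 HA22T arrays and 1 PLC5 array and was not tested. Its levels were -4.86, -4.80 and -5.28 in HA22T and -6.25, -6.06 and -5.45 in PLC5, near the background in both lines. The E-box CAGGTG, which ZEB1 can bind, was in the 250 bases before the start site of 15 of 23 genes of this list with a promoter, against 20.6% of all genes. Of 11 promoters of members higher in PLC5 6 held it, of 2 promoters of members higher in HA22T 1 held it, and of 6 promoters of members not called 4 held it. Because the list holds genes known as epithelial, its share is no result of the line comparison, and binding of ZEB1 was not tested.

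Keratins and other intermediate filament genes did not follow 1 direction. Of 14 tested, 4 (28.6%) were higher in each line and 6 were not called. All genes gave 21.2% higher in HA22T and 13.5% higher in PLC5. Among the called genes the keratins were KRT14, KRT17 and KRT23. The bright keratins KRT7, KRT8 and KRT18, named after their values were seen, differed by 0.54, 0.99 and 0.37 and were not called. KRT14 and KRT17, keratins of basal epithelium, were 14.9-fold and 5.00-fold higher in HA22T, while KRT23 was 20.9-fold and SYNM, a filament protein of muscle and stellate cells, at least 15.5-fold higher in PLC5. LMNA, a lamin of the nuclear envelope, was 2.00-fold higher in HA22T, and this call was lost with the slide as a block (limma, adjusted p = 0.058).

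Matrix genes and integrins, the receptors that tie cells to matrix, were more often higher in HA22T. Of 39 matrix genes, 21 (53.8%) were higher in HA22T and 4 (10.3%) in PLC5, against 21.2% and 13.5% of all genes. Another 14 were not called, and the median was 1.07. Collagen XII (COL12A1) had levels of 1.53, 2.38 and 2.32 in HA22T and of -6.73, -6.34 and -6.21 in PLC5, where 1 array was above background, a difference of 8.50 ± 0.35. The proteoglycan lumican (LUM), also with 1 such array, differed by 6.23, and urokinase (PLAU), a protease that activates plasminogen, by 5.98. In the other direction laminin alpha 4 (LAMA4) differed by -3.76, but its 4 tested probes ranged from -4.87 to -0.05. The metalloprotease inhibitor TIMP3 differed by -3.28. Among 18 integrins, 6 (33.3%) were higher in HA22T and 1 (5.6%) was higher in PLC5, against 21.2% and 13.5% of all genes. ITGA3, a laminin receptor chain, had levels of 5.62, 5.38 and 5.55 in HA22T and of 0.52, 0.39 and 0.42 in PLC5, a fold of 33.6 (limma, adjusted p = 3.93e-09). ITGB4 was 32.8-fold higher in HA22T and ITGA1, a collagen receptor chain, 4.46-fold higher in PLC5.

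**Figure D3:**
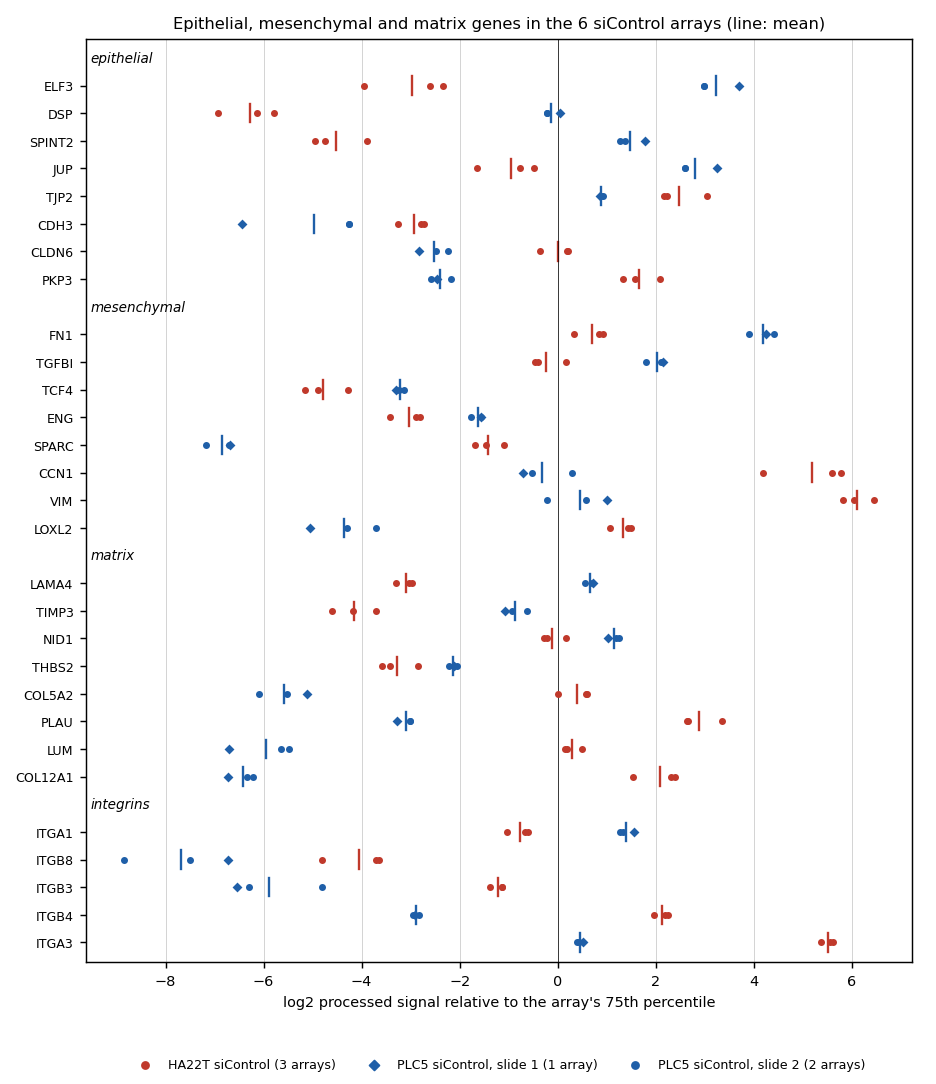
Each point is 1 siControl array, placed by its log2 processed signal relative to the 75th percentile of that array, for the epithelial, mesenchymal, matrix and integrin genes named by the rule; colours, diamonds and lines are as in the plot of hepatocyte genes. VIM, ITGA3 and ITGB4 of HA22T lie to the right of all PLC5 arrays, and FN1 and ELF3 lie to the left of them.

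Growth factor genes were compared because the study concerns signalling through the EGF receptor. EGFR itself had levels of 1.37, 1.46 and 1.37 in HA22T and of 0.95, 0.92 and 0.87 in PLC5. These groups did not overlap, yet the difference of 0.49 ± 0.22 was not called (limma, adjusted p = 0.118). This SE also holds the spread of the siGALNT1 arrays, so the missing call does not show that the EGFR levels were alike. GALNT1, the enzyme that starts mucin-type O-glycosylation and the target of the siRNA on the other arrays, had siControl levels of 1.41, 1.06 and 1.00 in HA22T and of 0.99, 0.41 and 0.67 in PLC5, and its difference of 0.47 ± 0.59 was not called (limma, adjusted p = 0.603). The siControl levels of GALNT1 did not overlap, with standard deviations of 0.22 in HA22T and 0.29 in PLC5. The SE also holds the spread of the siGALNT1 arrays, where GALNT1 was the target. The missing call therefore does not show that the siControl levels were alike. With the slide as a block, a term also fitted on the siGALNT1 arrays, the difference was -0.27, in the other direction. Within the first slide it was 0.17. In the siGALNT1 arrays the mean of GALNT1 was -3.82 in HA22T and -3.02 in PLC5. EGF was above background on 1 array of each line and was not tested.

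Of 14 genes of the EGF receptor family and its ligands, 4 (28.6%) were higher in HA22T, 3 (21.4%) were higher in PLC5 and 7 were not called. Over all genes the shares were 21.2% and 13.5%. Amphiregulin (AREG), a ligand of EGFR, had levels of -1.94, -1.54 and -2.12 in HA22T and of 3.09, 3.33 and 3.52 in PLC5, 36.2-fold apart (limma, adjusted p = 9.36e-08). The receptors ERBB3 and ERBB4 were also higher in PLC5, by 3.14 and 2.38 on the log2 scale, ERBB4 with 2 HA22T arrays above background. The ligand HBEGF, with 2 PLC5 arrays above background, was higher in HA22T by 1.56, the ligand NRG1 by 1.29 and the sheddase ADAM17 by 1.20.

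Of 22 O-glycosylation enzymes, 3 were higher in HA22T, 5 were higher in PLC5 and 14 were not called. These shares were 13.6% and 22.7%, against 21.2% and 13.5% of all genes. The initiating enzymes GALNT6 and GALNT4 were at least 3.93-fold and at least 5.33-fold higher in PLC5, and GALNT12 was 4.17-fold higher there. The family member GALNT18 differed by 4.18 toward HA22T with 1 PLC5 array above background. The core 2 branching enzyme GCNT1 differed by 3.47 toward HA22T with 2 PLC5 arrays above background, and GCNT3, which makes the same branch in mucins, was 10.2-fold higher in PLC5.

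Of 34 other growth factor receptors and ligands, 12 (35.3%) were higher in HA22T, 6 (17.6%) were higher in PLC5 and 16 were not called. The shares of all genes were 21.2% and 13.5%. The TAM receptor ligand GAS6 had levels of 4.36, 4.24 and 4.69 in HA22T and of -4.46, -3.38 and -3.45 in PLC5, a difference of 8.19 ± 0.40 with 2 PLC5 arrays above background. The collagen receptor DDR2 was 58.3-fold higher in HA22T, and the TAM receptor MERTK was at least 6.48-fold higher in PLC5. FGF2 was at least 15.3-fold higher in HA22T and the receptor FGFR3 6.61-fold higher in PLC5. The HGF receptor MET did not differ beyond the spread, at 0.31 ± 0.23 (limma, adjusted p = 0.351).

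Wnt pathway genes differed in both directions. Of 29 tested, 6 (20.7%) were higher in HA22T, 11 (37.9%) were higher in PLC5 and 12 were not called. Over all genes these shares were 21.2% and 13.5%. LGR5, a receptor for R-spondins, was at least 8.47-fold, the nuclear factor LEF1 at least 8.19-fold and the feedback inhibitor NKD2 at least 22.3-fold higher in PLC5. RNF43, a ligase that removes Wnt receptors, was 11.9-fold higher in PLC5. In HA22T the secreted antagonist DKK1 stood at 1.66, 1.62 and 1.07 and was not well above background on any PLC5 array, at least 112-fold higher. The ligand WNT5B differed by 4.77, the target gene SP5 by 3.61 and the receptor FZD2 by 2.79, all toward HA22T.

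Interferon-induced genes were higher in HA22T. Of 30 tested, 18 were higher in HA22T, 3 were higher in PLC5 and 9 were not called, with a median of 1.51. The median was 0.84 over the members above background on all 6 arrays, and within the first slide 11 were called higher in HA22T and 2 higher in PLC5. IFI44L had levels of -2.26, -1.37 and -1.42 in HA22T, was not well above background in PLC5 and was at least 14.2-fold higher in HA22T. The antiviral enzyme RSAD2 was at least 5.28-fold higher. The transcription factor IRF1 had levels of 0.30, -0.37 and 0.64 in HA22T and of -2.30, -3.62 and -3.53 in PLC5, 10.1-fold apart (limma, adjusted p = 0.000327). The exceptions were OAS1, a sensor of double-stranded RNA, which was 8.90-fold higher in PLC5, the exonuclease ISG20, 3.31-fold, and IFI35, 1.84-fold. In the siGALNT1 arrays all 21 called members kept their direction, and 15 were called higher in HA22T and 3 higher in PLC5.

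The core of the interferon response element, GAAA, any 2 bases and GAAA again, was searched on both strands of the same promoters. This motif was chosen after the values were seen. It was in 3.71% of all genes with a promoter, in 10 of 13 promoters of list members higher in HA22T, in 1 of 3 of those higher in PLC5 and in 4 of 6 of those not called. The list holds genes known for their response to interferon, so the share in the list is no result of the line comparison. The stretches of 3 members that differed are shown with the match in capitals, the third of them from the member higher in PLC5.
IFI44L (chr1:78620348-78620411, plus strand): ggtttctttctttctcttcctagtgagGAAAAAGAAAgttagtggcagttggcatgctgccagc
RSAD2 (chr2:6877605-6877668, plus strand): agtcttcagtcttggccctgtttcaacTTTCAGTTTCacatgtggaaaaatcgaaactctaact
ISG20 (chr15:88638920-88638983, plus strand): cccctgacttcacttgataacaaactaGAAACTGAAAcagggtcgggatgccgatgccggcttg

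Genes of antigen presentation, mostly of the class I pathway with HLA-DMA, HLA-DPA1 and CD74 of class II, were also more often higher in HA22T. Of 14 tested, 11 (78.6%) were higher in HA22T and 0 in PLC5, against 21.2% and 13.5% of all genes. Another 3 were not called, and the median was 1.49. HLA-B, a class I heavy chain, had levels of 4.49, 4.71 and 4.84 in HA22T and of 1.80, 1.95 and 2.24 in PLC5, 6.44-fold apart (limma, adjusted p = 9.74e-06). The light chain B2M was 3.99-fold and the immunoproteasome subunit PSMB8 18.0-fold higher in HA22T. The peptide transporter subunit TAP2 was 9.64-fold higher by its brighter probe, while its other tested probe differed by -1.15. HLA genes are highly alike and variable, and the probes may not bind the alleles of both lines equally, which was not tested.

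Metallothioneins were higher in HA22T in 7 of 8 tested genes (87.5%), against 21.2% of all genes, with a median of 4.38. MT2A, the most widely used member, had levels of 7.32, 6.21 and 6.26 in HA22T and of 1.26, 1.22 and 1.38 in PLC5, 39.6-fold apart (limma, adjusted p = 8.02e-08). MT1H was 31.9-fold higher, and MT1E 75.2-fold by its brighter probe but by 2.12 on the log2 scale with the other probe. MT1F went the other way, 2.46-fold higher in PLC5. These genes are near copies of each other, so probes may share signal between members. The metal response element (TGC, any base, C, any base, CGGC), chosen after the values were seen, was in 2.58% of all promoters and in 3 of the 4 metallothionein promoters in the table. That share is no result of the line comparison either. The element was searched in the same 250 bases. The match is shown for MT2A, in capitals, with 2 matches in the stretch.
MT2A (chr16:56608418-56608481, plus strand): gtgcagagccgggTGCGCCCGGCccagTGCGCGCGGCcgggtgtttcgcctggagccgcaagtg

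**Figure D4:**
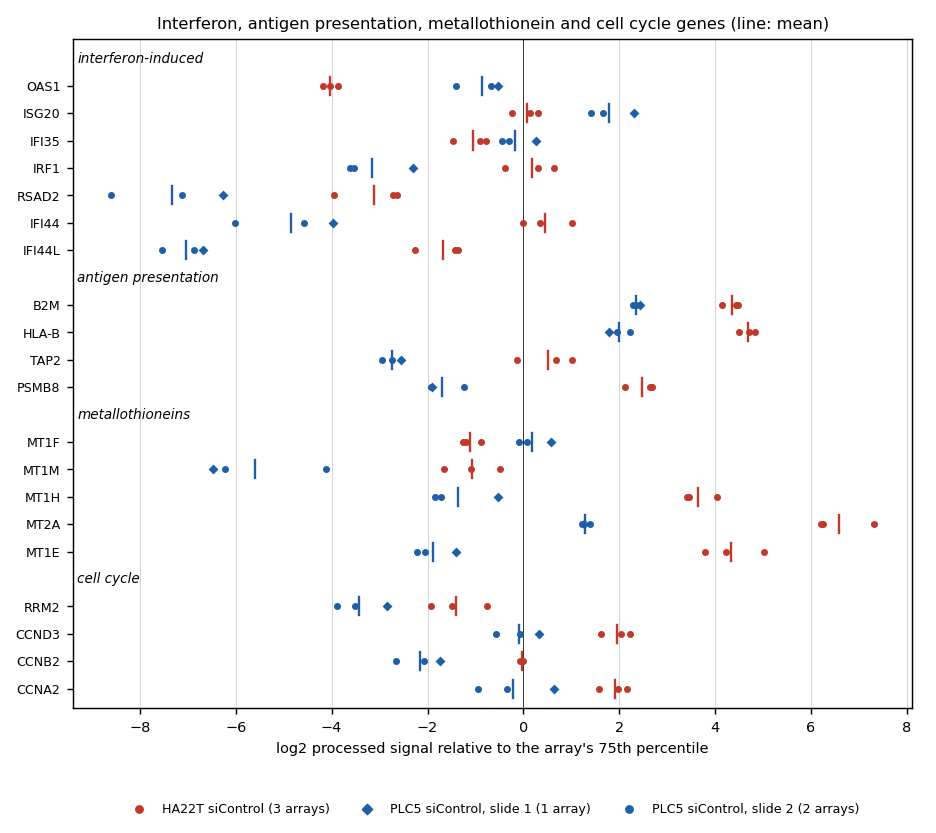
Each point is 1 siControl array, placed by its log2 processed signal relative to the 75th percentile of that array, for interferon-induced, antigen presentation, metallothionein and cell cycle genes named by the rule; colours, diamonds and lines are as in the plot of hepatocyte genes. In the cell cycle rows the PLC5 array of the first slide (diamond) lies nearest to the HA22T arrays.

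Cell cycle genes were higher in HA22T in 23 of 33 tested (69.7%), against 21.2% of all genes. None (0) was higher in PLC5, against 13.5% of all genes, 10 were not called and the median was 1.42. Cyclin A2 (CCNA2) had levels of 1.97, 2.17 and 1.59 in HA22T and of 0.64, -0.96 and -0.35 in PLC5, 4.38-fold apart (limma, adjusted p = 0.00169). Cyclin B2 (CCNB2) was 4.33-fold, cyclin D3 (CCND3) 4.17-fold and the ribonucleotide reductase subunit RRM2 4.06-fold higher. The size of this difference moved with the slide. With the slide as a block the median was 0.81, 13 members were called higher in HA22T and 1 higher in PLC5, and within the first slide it was 0.76 with 5 called. RRM2 was no longer called with the block (limma, adjusted p = 0.055). The siGALNT1 arrays, which lay on the same slides in the same way, gave a median of 1.21.

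Among 22 cytokines and chemokines, 4 (18.2%) were higher in HA22T, 7 (31.8%) were higher in PLC5 and 11 were not called. For all genes the shares were 21.2% and 13.5%. CCL20, which attracts lymphocytes, was 69.2-fold higher in PLC5, and CCL2, which attracts monocytes, was at least 40.3-fold higher in HA22T. IL6 differed by 3.24 and CSF1 by 3.88, both toward HA22T. CXCL8, with 2 HA22T arrays above background, differed by -3.16 (limma, adjusted p = 0.0474), a call lost with the slide as a block (limma, adjusted p = 0.214).

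Some of the largest differences lay outside the lists. IGFBP1, a binding protein of insulin-like growth factors secreted by liver, had PLC5 levels of 6.84, 6.59 and 6.72 and no HA22T array well above background, and was at least 4334-fold higher in PLC5. The plasma protease inhibitor A2M was at least 1721-fold and the peptide hormone gene CRH at least 417-fold higher. HAVCR1, a receptor of injured epithelium, and MTTP, which loads lipid onto apolipoprotein B, were at least 309-fold and at least 120-fold higher in PLC5. MAGEA1, an antigen of testis and tumors, was at least 159-fold higher. Where both lines were measured, the hepatocyte lectin ASGR1 differed by -7.12, the glutathione peroxidase GPX2 by -8.83, S100P, a calcium-binding protein, by -8.48, and the testis antigens MAGEA4 and CT45A1 by -7.03 and -7.33. TESC differed by -7.76, and the quinolinate enzyme QPRT was 128-fold higher in PLC5.

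The largest difference toward HA22T was that of S100A6, a calcium-binding protein, with levels of 8.02, 7.59 and 7.71 in HA22T and of -2.96, -3.17 and -2.96 in PLC5. Its difference was 10.80 ± 0.36 (limma, adjusted p = 8.92e-10), 1786-fold, and 10.65 in the siGALNT1 arrays. FSTL1, a secreted glycoprotein, differed by 7.77, the chemoattractant RARRES2 by 7.30, the collagen uptake receptor MRC2 by 6.67, GPNMB by 6.52, the matrix protein EFEMP1 by 6.19 and the adhesion molecule L1CAM by 6.00. The lymphotoxin receptor LTBR was 147-fold higher in HA22T. SAA1, an acute phase protein of liver, was at least 423-fold higher in HA22T. Annexin A6 (ANXA6) was at least 241-fold, SAMD9L at least 90.1-fold, EMP1 at least 65.6-fold, PLSCR4 at least 63.5-fold, BDNF at least 55.8-fold, ANTXR1 at least 55.1-fold, FAR2 at least 53.8-fold and CCN3 at least 40.4-fold higher.

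Markers of other cell types were checked because a line should hold 1 cell type. Of 11 blood cell markers tested, 3 (27.3%) were higher in HA22T and 2 (18.2%) in PLC5, near the 21.2% and 13.5% of all genes. Their summed level, relative to the 75th percentile, was 120 to 140 in HA22T and 82.2 to 115 in PLC5. CD14, a coreceptor of monocytes that hepatocytes also make, differed by 3.97. Of 4 endothelial markers tested 1 (25.0%) was higher in each line, with a summed level of 0.680 to 0.905 in HA22T and of 4.98 to 6.23 in PLC5. PECAM1 differed by -5.30 ± 0.28 with all 3 of its probes toward PLC5, while CDH5 and VWF, named after their values were seen, were not called. The 5 stellate cell and fibroblast markers tested gave 1 call (20.0%) each way and summed levels of 2.09 to 2.26 and of 3.21 to 4.22. The 6 cholangiocyte markers tested gave 2 calls (33.3%) each way. The part of other cell types in these results was not tested. Among 10 reference genes, HPRT1, PPIA and B2M (30.0%) were higher in HA22T by 0.99, 1.04 and 2.00 and 7 were not called. With the slide as a block HPRT1 and PPIA were no longer called (limma, adjusted p = 0.0988 and 0.127). GAPDH differed by 0.38 (limma, adjusted p = 0.313).

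The line difference was repeated in the 6 siGALNT1 arrays, which took no part in the calls beyond the estimate of the spread. Of 9694 called probes with a value there, 9622 (99.3%) had the same direction and 6809 (70.2%) were also called in a fit of those arrays alone. None (0) was called in the opposite direction by limma. Among probes not called, 74.7% had the same direction. The arrays share cell lines and slides with the siControl arrays, so the repeat covers array and sample error and not the slide. The line difference under siControl was also set against that under siGALNT1, and limma called 0 of 33334 probes, with 1168 at an unadjusted p below 0.05 and a lowest adjusted p of 0.0726.

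**Figure D5:**
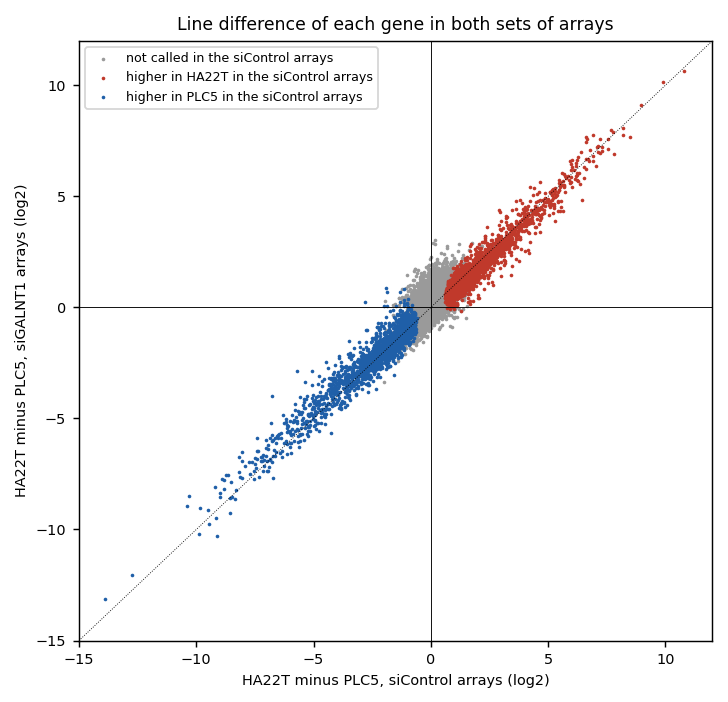
Each point is 1 gene, with its log2 difference HA22T minus PLC5 in the siControl arrays on the horizontal axis and in the siGALNT1 arrays on the vertical axis; red and blue points were called in the siControl arrays and the dotted line marks equal differences. The called genes lie near the line, and among those measured in both lines APOA2 lies at -9.91 and -10.20 and S100A6 at 10.80 and 10.65.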

How the data were processed

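The 12 one-color Agilent arrays were scanned and processed by the authors with Feature Extraction 10.5.1.1. The intensity values they deposited are background-subtracted processed signals, spot and background brightness, and spot flags. A table of log2 values that the authors deposited, whose 75th percentile lies at about 0 on every array, served as an alternative. Control spots and spots flagged as non-uniform were dropped, the 75th percentile of an array was subtracted from its log2 signals, and spots of a probe were averaged (50599 probes). RefSeq accessions named 28170 probes (20499 genes, assembly GRCh38.p14). The 4 groups were fitted together with limma 3.58.1 (lmFit and eBayes, R 4.3.3), and p-values were adjusted by Benjamini-Hochberg over all tested probes. A gene was read from its brightest tested probe with a value on all 6 arrays. The fit was tested on simulated data in which 200 of 33730 probes were changed. Changes of 0.5, 1, 2 and 3 on the log2 scale were called in 0%, 10%, 68% and 94% of 50 probes each. Far more probes were called in the real data, so recovery there may differ. A gene not called may still differ between the lines. The number of arrays limits the precision.

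The members and the gene lists were chosen with earlier results of these data known. Named genes are 13 fixed genes, the 10 largest differences in each direction measured in both lines, the 10 largest bounds in each direction, and up to 4 genes per list and direction among those called. Genes of XIST and chromosome Y were left out. Some named genes and 1 list are not reported here.

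The alternatives were normexp background on the median spot signal (offset 50), quantile normalization, median scaling, the deposited table, other filters, flagged spots kept, the slide as a block, a block of the replicate number, the first slide alone, the 6 siControl arrays alone, eBayes with trend or robust, the methods' t-test (Student's), other call rules, a gene read as the mean of its tested probes, and leaving out single arrays.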

Additional observations from a re-analysis of the deposited data

How the results depend on the processing

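The number of called probes lay between 7435 and 10112 when 1 array was left out, with the lowest value without PLC5 siControl replicate 3, and was 11042 with the replicate number as a block. Same-numbered arrays of the lines had deviation correlations of 0.290, 0.273 and -0.003, and HA22T replicate 3 correlated best with PLC5 replicate 2, so the numbers were not taken to pair them. Within the first slide, where PLC5 has 1 array that was assumed to vary like the other groups, 4560 probes were called, 2342 higher in HA22T and 2218 higher in PLC5, and called probes with the same direction in the siGALNT1 arrays numbered 4484. The 6 siControl arrays with the slide as a block, an alternative added after the data were seen, gave 5992 called probes, with called probes higher in HA22T at 3058. The prior over all probes, also added then, gave 8561. With a 1.5-fold change and unadjusted p as the call rule 12685 probes passed, and the methods' t-test with Benjamini-Hochberg gave 6689. The median of plasma protein genes was -4.30 with normexp, -2.95 when all 6 arrays had to be above background and -5.50 within the first slide. The filter on all 6 arrays also moved drug and xenobiotic metabolism to -0.077, interferon-induced genes to 0.84 and cholangiocyte markers to -0.17. Cholangiocyte markers further gave -0.11 with quantile normalization and 0.035 with the slide block, and 0.041 to 0.298 with 1 array left out. Cell cycle genes gave 0.81 with the slide block and 0.76 within the first slide. The mean over all probes gave -0.80 for Wnt genes. Leaving out 1 array gave O-glycosylation enzymes 0.058 to 0.349 and inflammatory cytokines and chemokines -0.480 to -0.126. GALNT1 turned to -0.27 with the slide block, which was also fitted on the siGALNT1 arrays, and was 0.17 within the first slide. GAPDH turned to -0.13 with quantile normalization and to -0.026 within the first slide. Neither was called in the reported fit. Of 187 named genes, 181 were called, and 36 of them lost the call under at least 1 alternative. The slide block lost 10 and the methods' t-test 17, and more were lost within the first slide, where PLC5 has 1 array. The cause was not tested.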

Other observations

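Antigens of testis and tumors were not among the lists, and their families were chosen after their values were seen. Of 8 MAGEA genes tested, 7 were higher in PLC5 and 1 was higher in HA22T, with differences from -9.22 to 1.96 and a median of -5.86. Of 9 CT45A and CTAG genes, 7 were higher in PLC5, 0 were higher in HA22T and 2 were not called. Members of these families are near copies, so probes may share signal.

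The line difference varied by chromosome. Over 833 genes of chromosome 3 the median difference was 0.49, with 34.2% of genes higher in HA22T and 10.7% higher in PLC5, and over 644 genes of chromosome 9 it was 0.40. Over 687 genes of chromosome 16 the median was -0.02, with 13.5% higher in HA22T and 18.3% higher in PLC5. The medians of chromosomes 3 and 16 were 0.57 and 0.11 in the siGALNT1 arrays, and 0.40 and -0.13 within the first slide.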
